A study of Homo sapiens with 5 samples.

Results

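The 10 genes described here are 3 cadherins (CDH1, CDH3 and CDH17), 5 transcription factors of the epithelial-mesenchymal transition (EMT; ZEB1, ZEB2, SNAI1, SNAI2 and TWIST1), the intermediate filament gene VIM and the epithelial transcription factor gene GRHL2. They were picked by gene symbol, with no threshold on their values, and all 10 were present among the 25343 gene rows measured. Messenger RNA was sequenced from SW620, an established line from a human colon carcinoma. In all 5 libraries the cells carried tet-MUC1shRNA, an inducible short hairpin RNA against MUC1, which encodes a transmembrane mucin. The labels name 2 libraries pos (replicates 1 and 3) and 3 libraries neg (replicates 1, 2 and 3). Treatment was with vehicle or with doxycycline, which induces such hairpins. The labels do not say which name stands for which, nor the dose or time, nor whether the line is 1 clone, so the names pos and neg are kept, and an effect of the hairpin and one of the drug cannot be told apart. Cultures were in triplicate per the labels, with nothing further said of their source, so p-values measure only the spread between these 5 libraries, which may be technical.

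E-cadherin, the product of CDH1, holds epithelial cells together: its outer part binds E-cadherin on the neighbouring cell. Its tail binds beta-catenin and p120-catenin, and alpha-catenin, held through beta-catenin, ties the junction to actin. During EMT, zinc finger factors of the SNAIL and ZEB families bind E-box motifs near the CDH1 start and recruit corepressors, while vimentin filaments often become more abundant. GRHL2 acts in the other direction in epithelia, where it activates CDH1 and opposes ZEB1.

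Library totals were 12190025 and 13470767 reads in pos replicates 1 and 3, against 10888704 to 14137678 in neg. MUC1, the hairpin's target, had 27 and 13 reads in pos replicates 1 and 3, against 176 to 252 in neg (log2 fold change -3.07, SE 0.34, edgeR adjusted p = 0.0270). The pos libraries differed from each other more than neg libraries did, with a Pearson r of log2 CPM across genes of 0.912, against 0.983 to 0.993 among neg pairs. Long transcripts were under-represented in pos replicate 3, where genes with transcripts of 5684 nt or more had a median log2 ratio to the neg mean of -1.25 and those of 1737 nt or less a median of 1.19. In pos replicate 1 the same medians were -0.26 and 0.37. Each tested gene of the 10 is therefore given with either pos library alone and with each library's trend on transcript length removed. Of 10 colon epithelial markers EPCAM, KRT8, KRT18, KRT19, VIL1 and CDX2 were above 15 CPM (TMM-normalised counts scaled to library size) in every library, while KRT20, GPA33, LGALS4 and CDH17 were below 2 CPM in every library. Their summed level was 7691 to 16324 CPM in pos and 5538 to 7370.5 CPM in neg. KRT8, KRT18 and KRT19 made up most of that sum, and its highest value was that of pos replicate 3. In pos replicate 1 KRT8, at 3678 CPM, was above all neg libraries (2156 to 3078). There KRT18, at 2257 CPM, was within the neg range (1852 to 2369) and KRT19, at 951 CPM, below it (1005 to 1397). Of 7 fibroblast markers COL1A2 and COL3A1 were at 0 reads in every library, and the list summed to 13.5 to 18.7 CPM in pos, against 25.4 to 29.2 CPM in neg. The list of 4 endothelial markers summed to 0.890 to 1.48 CPM in pos and 2.73 to 4.02 CPM in neg. Of 5 leukocyte markers 3, PTPRC and CD3E among them, were at 0 reads in every library. The list summed to 47.7 to 60.7 CPM in pos and 48.5 to 58.2 CPM in neg, and CD68 made up most of that sum. LYZ was at 11.7 and 14.0 CPM in pos replicates 1 and 3, against 5.17, 5.91 and 4.90 CPM in neg. It was higher in pos at an edgeR adjusted p under 0.05, as were 5.06% of all tested genes. With the length trend removed, none of the list was higher at that threshold. The part these lists play in the results was not tested.

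CDH1 and SNAI2 were the 2 genes of the 10 that fell in pos. CDH1 was 3.19-fold lower, and SNAI2, which encodes the repressor SLUG, was 4.06-fold lower. ZEB1 and CDH3 were lower in both pos libraries than in all neg libraries without passing the threshold. SNAI1 and VIM overlapped between the groups, and CDH17, ZEB2, TWIST1 and GRHL2 had few or no reads. Of the 10 genes 7 passed the filter on low counts and were tested. Of those 7, 2 were called at an adjusted p of 0.05 by the quasi-likelihood test of edgeR, adjusted over 13604 genes. Of all tested genes 9.20% were called, 5.06% higher and 4.13% lower in pos. CDH1, CDH3, ZEB1 and SNAI2 had no overlap between the groups, as did 56.0% of all tested genes, 29.3% lower and 26.7% higher in pos.

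**Figure D1:**
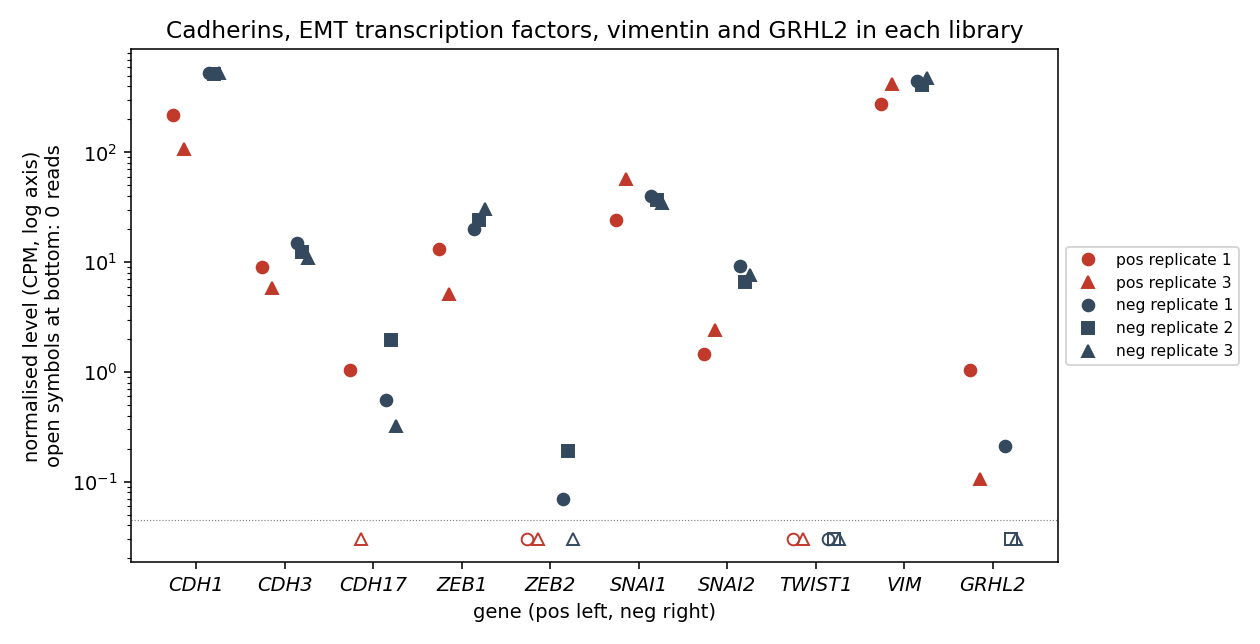
Normalised level of the 10 genes in each library (CPM, log axis), with pos libraries in red at left and neg libraries in dark blue at right of each gene; open symbols at the bottom mark 0 reads. CDH1, CDH3, ZEB1 and SNAI2 lie lower in both pos libraries than in all neg libraries, and TWIST1 has 0 reads throughout.

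Levels of different genes can be compared only per length, here as CPM per kilobase of the canonical transcript. In pos the order was VIM at 161 ± 45.4, CDH1 at 34.0 ± 16.4, SNAI1 at 23.8 ± 13.8, CDH3 at 1.66 ± 0.506, ZEB1 at 1.54 ± 0.946, SNAI2 at 0.890 ± 0.314, CDH17 at 0.143 ± 0.203 and GRHL2 at 0.111 ± 0.128 CPM per kilobase (SD, n = 2), with ZEB2 and TWIST1 at 0 reads. In neg it was VIM at 206 ± 15.7, CDH1 at 109 ± 1.86, SNAI1 at 21.8 ± 1.52, ZEB1 at 4.19 ± 0.894, SNAI2 at 3.59 ± 0.608, CDH3 at 2.88 ± 0.466, CDH17 at 0.257 ± 0.239, GRHL2 at 0.0134 ± 0.0231 and ZEB2 at 0.00930 ± 0.0103 CPM per kilobase (SD, n = 3), with TWIST1 at 0 reads. Every library held transcripts of both the epithelial CDH1 and the mesenchymal VIM, and SNAI1 stood above the other 4 EMT factors in both groups. In pos the libraries of CDH1 and SNAI1 overlapped, as did those of CDH3 and ZEB1, of ZEB1 and SNAI2, and of CDH17 and GRHL2. In neg VIM, CDH1 and SNAI1 stood clear of one another, whereas SNAI2 overlapped with ZEB1 and with CDH3.

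CDH1 (ENSG00000039068) lies on chromosome 16 from 68737292 to 68835537 (GRCh38, GENCODE 44, plus strand), and its canonical transcript has 16 exons and 4811 nt. It had 2708 and 1022 reads in pos replicates 1 and 3, against 7487, 8157 and 6601 in neg replicates 1, 2 and 3. Its level was 219 and 108 CPM in pos, against 524, 513 and 531 CPM in neg. The neg libraries agreed closely, both pos libraries lay far below them, and the pos libraries were themselves 1 high and 1 low. The group means were 163 ± 78.8 CPM in pos (SD, n = 2) and 522 ± 8.95 CPM in neg (SD, n = 3), a log2 fold change of -1.68 (SE 0.34, edgeR adjusted p = 0.0434). In bulk RNA, fewer cells with the transcript and less transcript per cell cannot be told apart.

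The CDH1 difference was -1.28 on the log2 scale with pos replicate 1 alone and -2.23 with pos replicate 3 alone. A fit with a single pos library measures that library, and such fits called 31.3% of all tested genes with pos replicate 1 and 63.1% with pos replicate 3, so passing in one of them is no result about the group. The 200 tested genes nearest to CDH1 in length had median log2 ratios to the neg mean of -0.14 in pos replicate 1 and -0.73 in pos replicate 3, where CDH1 itself was at -1.25 and -2.28. Removing the length trend gave -1.33 for CDH1 (SE 0.17, edgeR adjusted p = 0.0125), where 14.1% of genes tested were called. The call ended when libraries were scaled by size alone (-1.97, edgeR adjusted p = 0.0658), and on leaving out any neg library, which left 0 genes of the whole table past the threshold in edgeR, with 2510 to 3033 genes at an unadjusted p under 0.05. CDH1 then stood at -1.69 to -1.66, with edgeR adjusted p-values of 0.178 to 0.217.

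CDH3 encodes P-cadherin, a close relative of E-cadherin found in basal epithelial layers and in many carcinomas. It is the upstream neighbour of CDH1 on the same strand, on chromosome 16 from 68636189 to 68727468 (GRCh38), and 9823 bases separate the genes. It had 8.98 and 5.80 CPM in pos (111 and 55 reads), against 15, 12.4 and 10.9 CPM in neg (215, 198 and 136 reads). Both pos libraries were lower than every neg library, by a margin smaller than that of CDH1. The log2 fold change of -0.79 (SE 0.29) did not pass (edgeR adjusted p = 0.122), and it was -0.47 with the length trend removed (edgeR adjusted p = 0.208). It passed with pos replicate 3 alone (-1.10, edgeR adjusted p = 0.00703), as did 63.1% of all genes, and not with pos replicate 1 alone (-0.54, edgeR adjusted p = 0.112). There were 24.4 and 18.6 CDH1 reads per CDH3 read in pos, against 34.8, 41.2 and 48.5 in neg. That ratio was lower in both pos libraries than in the neg libraries (exact permutation test, two-sided p = 0.100, the smallest that 2 libraries against 3 allow). With 9 such ratios computed, none can pass, and each p of 0.100 became 0.112 in this exact test after Benjamini-Hochberg adjustment. Every ratio but CDH1 per ZEB1 was at this smallest p. The ratios were chosen after values were seen, so these p-values only describe them. Groups did not overlap for 56.0% of all tested genes taken alone, and the share over all pairs of genes was not computed.

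CDH17 encodes LI-cadherin, an intestinal cadherin that does not bind catenins. It had 13 and 0 reads in pos replicates 1 and 3, against 8, 31 and 4 reads in neg, or 1.05 and 0 CPM in pos and 0.559, 1.95 and 0.322 CPM in neg. The groups overlapped, and neg libraries alone spanned a wider range than the pos pair. The log2 fold change was -0.77 with an SE of 1.20 (edgeR adjusted p = 0.666), so no difference was detectable at this depth, and it was 0.06 with pos replicate 1 alone. The 0 reads of pos replicate 3 allow a level of up to 0.316 CPM, taking 3 counts as the limit, which covers counting error only.

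None of the 4 genes for catenins of E-cadherin junctions passed the test in edgeR or moved as far as CDH1. CTNNB1, which encodes beta-catenin, had 6618 and 2529 reads in pos and 5469, 6073 and 4002 in neg (log2 fold change 0.15, SE 0.32, edgeR adjusted p = 0.758). There were 0.409 and 0.404 CDH1 reads per CTNNB1 read in pos, against 1.37, 1.34 and 1.65 in neg. The pos libraries, which differed in the level of both genes, were alike in this ratio and well below neg (exact permutation test, two-sided p = 0.100). CTNNB1 has a transcript of 3661 nt, shorter than that of CDH1. CTNNA1, which encodes alpha-catenin, was at -0.80 (SE 0.21, edgeR adjusted p = 0.0614) and passed with the length trend removed (-0.60, edgeR adjusted p = 0.0286). JUP, which encodes plakoglobin, was at -0.55 (SE 0.18, edgeR adjusted p = 0.0908). CTNND1, which encodes p120-catenin, had only 43 to 125 reads in any library. Its exons are shared with the readthrough row TMX2-CTNND1, listed at 0 reads in all 5 libraries, so its level is uncertain.

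**Figure D2:**
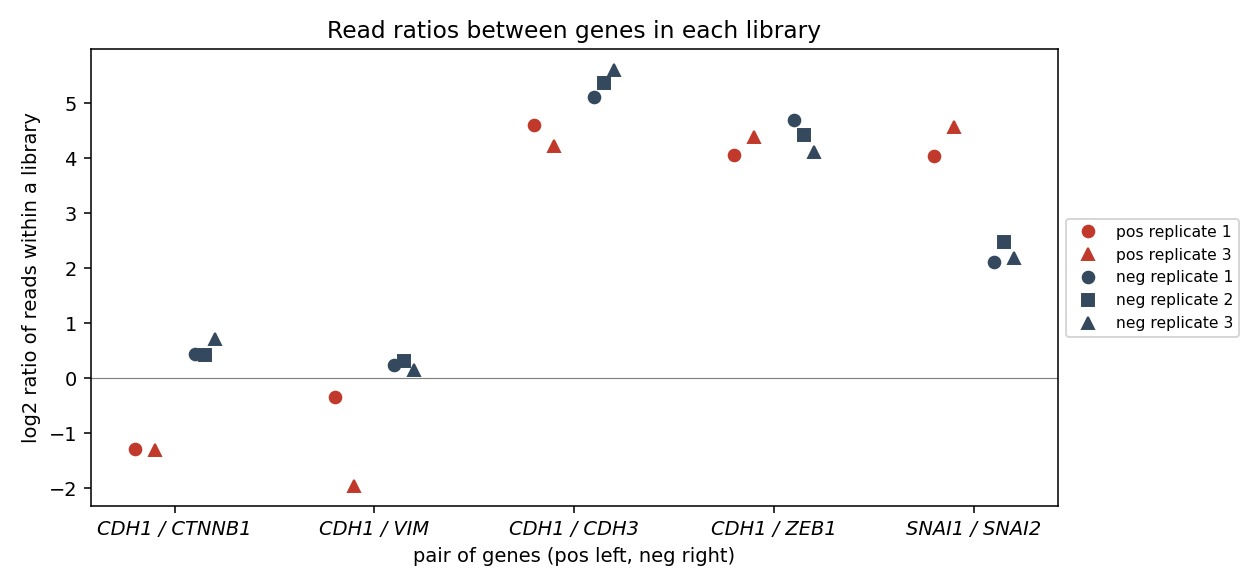
Log2 ratio of reads of 2 genes within each library, with pos libraries in red at left and neg libraries in dark blue at right. CDH1 per CTNNB1, per VIM and per CDH3 lies lower in both pos libraries than in all neg libraries, SNAI1 per SNAI2 lies higher, and CDH1 per ZEB1 overlaps. The pairs were chosen after values were seen.

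SNAI2 (chromosome 8, 48917598 to 48921740, minus strand, GRCh38) encodes the E-box-binding repressor SLUG. It had 18 and 23 reads in pos replicates 1 and 3, against 132, 105 and 95 in neg. That is 1.46 and 2.42 CPM in pos and 9.23, 6.60 and 7.64 CPM in neg. Both pos libraries were low, and the exact Poisson 95% interval of the higher one, for counting error only, 1.54 to 3.64 CPM, ended below the lowest neg interval, 5.40 to 7.99 CPM. The group means were 1.94 ± 0.685 CPM in pos (SD, n = 2) and 7.82 ± 1.32 CPM in neg (SD, n = 3). The log2 fold change was -2.02 (SE 0.35, edgeR adjusted p = 0.0381), and -2.44 and -1.64 with pos replicate 1 or 3 alone. The transcript has 2180 nt, and genes of that length were on the whole higher in pos: the 200 nearest had medians of 0.15 and 0.49 in pos replicates 1 and 3. Without that trend the log2 fold change was -2.31 (SE 0.29, edgeR adjusted p = 0.0124). Leaving out any neg library ended this call too, at -2.13 to -1.88 (edgeR adjusted p-values of 0.178 to 0.217).

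SNAI1 encodes SNAIL, the founding member of the same repressor family, and lies on chromosome 20 (49982980 to 49988886, plus strand, GRCh38). Its level was 24.0 and 57.1 CPM in pos (296 and 542 reads), against 39.9, 36.7 and 34.8 CPM in neg (571, 583 and 433 reads). The pos libraries lay on opposite sides of neg, replicate 1 below all neg libraries and replicate 3 above them. The log2 fold change was 0.12 (SE 0.37, edgeR adjusted p = 0.825), and it was -0.66 with pos replicate 1 alone (edgeR adjusted p = 0.0221) and 0.67 with pos replicate 3 alone (edgeR adjusted p = 0.00560), on opposite sides of 0, in fits that called 31.3% and 63.1% of all genes. Its transcript is short, at 1705 nt, and the 200 genes nearest in length had medians of 0.19 and 0.81 in pos replicates 1 and 3. SNAI1 was at -0.43 with the length trend removed (SE 0.23, edgeR adjusted p = 0.233) and at -0.36 when libraries were scaled by size alone, so no direction is given for it. There were 16.4 and 23.6 SNAI1 reads per SNAI2 read in pos, against 4.33, 5.55 and 4.56 in neg. The ratio was higher in both pos libraries than in every neg library (exact permutation test, two-sided p = 0.100).

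ZEB1 encodes a repressor with a zinc finger cluster at either end, and spans 31318495 to 31529814 of chromosome 10 (plus strand, GRCh38). It had 162 and 49 reads in pos, against 288, 381 and 381 in neg, or 13.1 and 5.17 CPM in pos and 20.1, 24.0 and 30.6 CPM in neg. Both pos libraries were lower than every neg library, and the neg libraries were themselves spread. The log2 fold change of -1.44 (SE 0.44) did not pass in edgeR (adjusted p = 0.0820) and passed in DESeq2 (-1.43, adjusted p = 0.0104), where 23.2% of genes were called, 10.0% lower in pos. It was at -0.95 with pos replicate 1 alone (edgeR adjusted p = 0.0321) and at -2.22 with pos replicate 3 alone (edgeR adjusted p = 0.000755), where 31.3% and 63.1% of all genes passed. Its transcript of 5937 nt is the longest of the 7 tested genes, and the 200 genes nearest in length had medians of -0.25 and -1.03 in pos replicates 1 and 3, where ZEB1 was at -0.90 and -2.21. Once the length trend was removed it was at -0.96 (SE 0.25, edgeR adjusted p = 0.0496), just past the threshold. The ratio of CDH1 to ZEB1 overlapped between groups, with 16.7 and 20.9 CDH1 reads per ZEB1 read in pos and 26.0, 21.4 and 17.3 in neg (exact permutation test, two-sided p = 0.400). The antisense RNA ZEB1-AS1 had 56 and 27 reads in pos and 60, 79 and 69 in neg. There were 2.89 and 1.81 ZEB1 reads per ZEB1-AS1 read in pos, against 4.80, 4.82 and 5.52 in neg. The transcript of ZEB1-AS1 has 382 nt, against 5937 nt for ZEB1, and the length trend was not removed from this ratio. The part of transcript length in it was not tested. Reads from a gene and its antisense partner can be told apart only where counting used strand, and the strand setting is not known here.

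The start regions of ZEB1 and VIM are shown because they are the 2 genes with readable expression among the 10 whose start region was in the RefSeq table (GRCh38.p14), each window running from 250 bases before to 50 after the start site. Capitals mark CAGGTG or its reverse complement CACCTG, the E-box form that SNAIL and ZEB factors prefer. The ZEB1 window is chr10:31318966-31319265 and the VIM window chr10:17227991-17228290, both on the plus strand.
ZEB1: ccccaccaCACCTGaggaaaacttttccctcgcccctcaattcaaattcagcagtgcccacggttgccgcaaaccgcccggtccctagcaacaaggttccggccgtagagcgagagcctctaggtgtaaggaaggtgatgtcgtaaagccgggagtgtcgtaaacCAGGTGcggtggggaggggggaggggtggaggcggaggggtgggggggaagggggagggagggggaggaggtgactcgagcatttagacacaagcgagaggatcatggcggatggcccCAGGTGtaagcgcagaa
VIM: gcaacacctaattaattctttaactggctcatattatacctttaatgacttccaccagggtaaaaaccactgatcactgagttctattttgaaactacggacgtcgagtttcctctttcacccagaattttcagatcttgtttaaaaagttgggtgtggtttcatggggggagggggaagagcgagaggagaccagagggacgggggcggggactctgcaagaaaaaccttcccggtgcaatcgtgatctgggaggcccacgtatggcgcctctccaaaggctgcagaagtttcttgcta
The ZEB1 window holds 3 matches and the VIM window 0. Of 7 ZEB1 windows in the table, each at another start site, 2 hold the motif, and the start site of the window printed is the GENCODE canonical start. Among all 35116 windows of this length 20.6% hold it at least once, and a match describes letters, not binding.

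ZEB2, the second ZEB factor, had 0 reads in both pos libraries and 1, 3 and 0 reads in neg. TWIST1, a helix-loop-helix EMT factor, had 0 reads in all 5 libraries, which allows up to 0.189 to 0.316 CPM depending on the library. Neither was tested, and the antisense row ZEB2-AS1 was likewise at 0 reads. GRHL2 (chromosome 8, 101492439 to 101669726, plus strand, GRCh38) had 13 and 1 reads in pos replicates 1 and 3, against 3, 0 and 0 in neg. The 13 reads of pos replicate 1 gave 1.05 CPM with an exact Poisson 95% interval of 0.560 to 1.8 CPM, while pos replicate 3, at 0.105 CPM, was within the neg range of 0 to 0.210 CPM. It did not pass the filter on low counts with all 5 libraries. It passed the filter with pos replicate 1 as the only pos library, where it was past the threshold (3.71, SE 1.03, edgeR adjusted p = 0.0307), as were 31.3% of all genes, so that call rests on 13 reads of 1 library. Its paralogue GRHL1, another Grainyhead factor, was the better covered one, with 85 and 35 reads in pos and 128, 122 and 114 in neg.

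VIM (chromosome 10, 17228241 to 17237593, plus strand, GRCh38) encodes vimentin, the type III intermediate filament of mesenchymal cells. It had 278 and 416 CPM in pos (3435 and 3948 reads), against 443, 411 and 479 CPM in neg (6338, 6540 and 5957 reads). Replicate 1 of pos lay below every neg library and replicate 3 within the neg range. The log2 fold change was -0.36 (SE 0.24, edgeR adjusted p = 0.321), -0.70 with pos replicate 1 alone (edgeR adjusted p = 0.0121, where 31.3% of all genes passed) and -0.05 with pos replicate 3 alone (edgeR adjusted p = 0.790). The 200 genes nearest to its 2154 nt in length had medians of 0.13 and 0.53 in pos replicates 1 and 3. VIM was at -0.67 once the length trend was removed (SE 0.16, edgeR adjusted p = 0.0432). There were 0.788 and 0.259 CDH1 reads per VIM read in pos, against 1.18, 1.25 and 1.11 in neg (exact permutation test, two-sided p = 0.100). Read ratios are not levels, since the transcripts differ in length, and per kilobase the VIM level was above that of CDH1 in every library. The log2 fold changes were -1.68 for CDH1 and -0.36 for VIM, and -1.33 and -0.67 after length removal, a smaller distance between the genes. The antisense row VIM-AS1 had 9 and 13 reads in pos and 17, 10 and 14 in neg.

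**Figure D3:**
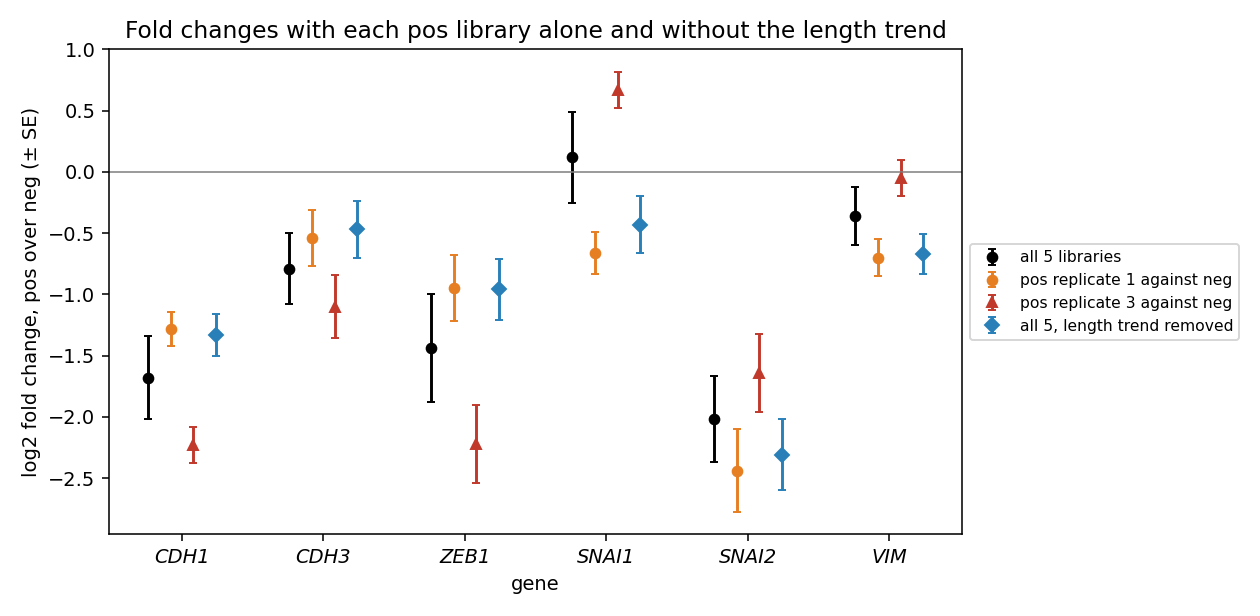
Log2 fold change of pos over neg with its standard error for 6 of the 7 tested genes, from all 5 libraries, from either pos library against neg, and from all 5 libraries with the length trend removed; CDH17 is left out because its standard error of 1.20 would set the axis. CDH1, CDH3, ZEB1 and SNAI2 lie below 0 in all 4 fits, and SNAI1 changes sign between the pos libraries (-0.66 and 0.67).

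The members with short transcripts and those with long ones ordered differently in the pos libraries. CDH1, CDH3, CDH17 and ZEB1, of 3670 to 5937 nt, were lower in pos replicate 3 than in pos replicate 1. SNAI1, SNAI2 and VIM, of 1705 to 2180 nt, were higher in pos replicate 3. For SNAI2 that order rests on 18 and 23 reads in pos replicates 1 and 3. Their exact Poisson 95% intervals overlap (0.863 to 2.30 and 1.54 to 3.64 CPM). For CDH17 it rests on 13 and 0 reads. After removal of the length trend, the log2 ratios to the neg mean in pos replicates 1 and 3 were -1.12 and -1.57 for CDH1, -2.41 and -2.05 for SNAI2, -0.70 and -1.26 for ZEB1, -0.79 and -0.54 for VIM, -0.38 and -0.51 for CDH3, -0.84 and -0.12 for SNAI1 and 0.49 and -2.20 for CDH17, the only one of the 7 whose pos libraries lay on opposite sides of 0. On that scale 4 of the 7 tested genes passed (CDH1, SNAI2, ZEB1 and VIM), all lower in pos, where 6.72% of all genes tested were called lower and 7.33% higher.

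**Figure D4:**
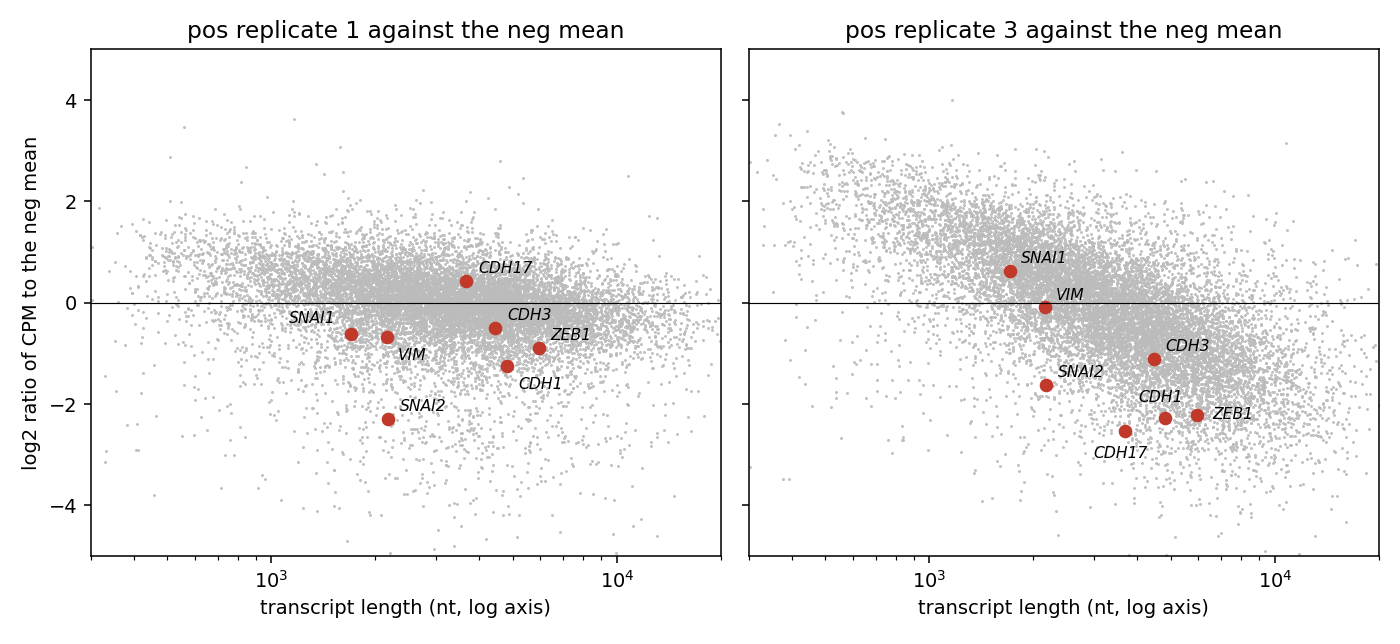
Log2 ratio of CPM to the neg mean against transcript length (nt, log axis) in each pos library, with all tested genes of known length in grey and the 7 tested members in red; 103 of 13258 genes fall outside the axes. In pos replicates 1 and 3 SNAI2 (-2.29 and -1.62) lies below the medians of the 200 genes nearest in length (0.15 and 0.49), and so does CDH1 (-1.25 and -2.28, medians -0.14 and -0.73).

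Genes around these 10 were taken from 11 lists written by name, with earlier results of these data known. The share called in them is therefore a description and no test of the lists. Of 177 genes 138 were tested, and 5 were higher and 14 lower in pos, or 13.8% called, against 9.20% of all tested genes (5.06% higher and 4.13% lower). Their median log2 fold change was -0.32, against -0.05 over all tested genes, and the medians were -0.05 and 0.02 with the length trend removed. Among the called genes named from these lists, the value moved most between pos replicate 1 alone and pos replicate 3 alone for S100A4 (log2 fold changes of 1.27 and 3.04), MAL2 (-4.40 and -2.68), KLF5 (-1.40 and -2.53) and CDX2 (1.56 and 2.65). A list with 1 call had 6.67% to 14.3% of its tested genes called, near the share over all genes, and nothing is read from that call about the list. Of the 19 called genes 13 were also called in the same direction with the length trend removed.

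Of 11 tested catenin and junction partners 1 (9.09%, near the 9.20% of all genes) fell, PVRL1 (nectin-1, an adhesion molecule of the same junctions), to 87.7 ± 13.5 CPM in pos against 183 ± 3.12 CPM in neg (log2 fold change -1.06, SE 0.20, edgeR adjusted p = 0.0390). It did not pass with the length trend removed (-0.48, edgeR adjusted p = 0.112). CTNNA1 (above), JUP (above) and MLLT4, which encodes the actin-linking protein afadin (-1.33, SE 0.44), were next by p and not past the threshold. MLLT4 passed with the length trend removed (-0.72, edgeR adjusted p = 0.0471). DESeq2 called 3 of the list lower (27.3%, against 23.2% of all genes), CTNNA1 and MLLT4 among them. The list's median was -0.49. Of 26 other cadherins 7 were tested and 6 had no read in any library. CDHR2, a cadherin of the brush border, fell (-1.15, SE 0.21, edgeR adjusted p = 0.0388), whereas FAT1, a giant cadherin, was at -1.25 (SE 0.48), the desmosomal DSG2 at -1.07 (SE 0.42) and CDH15 at -2.03 (SE 1.0), none past the threshold. CDH2, which encodes N-cadherin, the cadherin that often replaces E-cadherin in EMT, had 0 reads in both pos libraries and 0, 1 and 0 in neg.

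Genes that cut or turn over E-cadherin gave 0 calls among 15 tested in edgeR, with 3 at an unadjusted p under 0.05, where 34.6% of all genes were, and 3 calls in DESeq2 (20%, against 23.2% of all genes). The sheddase gene ADAM17 was at -1.84 (SE 0.48; past the threshold at -1.60 with the length trend removed, edgeR adjusted p = 0.0304), the gamma-secretase subunit genes APH1A and PSENEN at 0.91 (SE 0.28) and 1.16 (SE 0.42), and CBLL1, which encodes the E-cadherin ubiquitin ligase Hakai, at -0.84 (SE 0.36). Among 10 tested other EMT transcription factors FOXQ1, a forkhead factor, rose to 452 ± 0.357 CPM in pos against 249 ± 18.3 CPM in neg (0.86, SE 0.18, edgeR adjusted p = 0.0446). It was at 0.76 with the length trend removed (edgeR adjusted p = 0.0229). FOXC1 (-0.63, SE 0.28), PRRX1 (-0.94, SE 0.48) and TCF3 (-0.32, SE 0.19) were not past the threshold. Of 15 corepressor and chromatin genes that work with ZEB and SNAIL factors 1 fell in edgeR and 0 rose, and the median was -0.12. CTBP2 (-0.74, SE 0.23), RCOR1 (-1.01, SE 0.36) and HDAC1 (0.37, SE 0.20) were not past the threshold. Of 13 genes for turnover of SNAIL and TWIST proteins the kinase gene CSNK2A1 fell (-1.07, SE 0.23, edgeR adjusted p = 0.0457), but it was at -0.08 after length removal. USP3 (-0.52, SE 0.19), GSK3B (-0.74, SE 0.31) and LATS2 (-0.86, SE 0.40) were not past the threshold.

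Epithelial factors went both ways. Of 12 tested epithelial transcription and splicing factors 2 rose and 1 fell (25%, against 9.20% of all genes). CDX2, the intestinal homeobox factor, rose to 92.9 ± 44.5 CPM in pos against 20.4 ± 2.08 CPM in neg (2.18, SE 0.33, edgeR adjusted p = 0.0337). KLF5 fell, to 159 ± 88.8 CPM in pos against 574 ± 48.3 CPM in neg (-1.85, SE 0.39, edgeR adjusted p = 0.0449), and OVOL1, a repressor of ZEB1, was at -4.28 (SE 1.05, edgeR adjusted p = 0.0552) with 0.0527 ± 0.0745 CPM in pos and 1.08 ± 0.520 CPM in neg. Of 18 tested epithelial genes known from other cells as repressed by ZEB1, 0 rose and 2 fell in edgeR (11.1%, against 9.20% of all genes). In either direction 5 had an unadjusted p under 0.05 in edgeR, while DESeq2 called 2 higher and 3 lower (27.8%, against 23.2% of all genes). The list's median was 0.21. MAL2, a protein of apical transport, was at -3.40 (SE 0.53, edgeR adjusted p = 0.0345) with 0.344 ± 0.258 CPM in pos and 3.54 ± 0.350 CPM in neg, and CGN, which encodes the tight junction protein cingulin, at -1.40 (SE 0.24, edgeR adjusted p = 0.0381). EPCAM (0.64, SE 0.18, edgeR adjusted p = 0.0671) and SPINT1 (0.76, SE 0.24) were next and not past the threshold.

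Mesenchymal genes also went both ways, with 2 higher and 4 lower of 18 tested, against 5.06% higher and 4.13% lower of all genes, and a median of -0.26. TGFBI, a matrix protein induced by TGF-beta, rose (1.27, SE 0.23, edgeR adjusted p = 0.0386), as did the calcium-binding S100A4, to 1347 ± 1004 CPM in pos against 259 ± 41.0 CPM in neg (2.38, SE 0.48, edgeR adjusted p = 0.0441). S100A4 has a transcript of 513 nt and was at 0.86 with the length trend removed (edgeR adjusted p = 0.0253). COL1A1, a fibrillar collagen chain, fell (-1.36, SE 0.21, edgeR adjusted p = 0.0340), as did the fibronectin receptor subunit gene ITGA5 (-1.17, SE 0.20, edgeR adjusted p = 0.0381), and neither passed with the length trend removed (-0.78 and -0.83). LOX, an enzyme that crosslinks collagen, also fell. Of 13 tested intermediate filament genes and vimentin partners 2 fell (15.4%), against 9.20% called and 4.13% lower over all tested genes. SYNM, which encodes the vimentin-binding synemin, was at -3.41 (SE 0.56, edgeR adjusted p = 0.0369), and PLEC, which encodes the cytolinker plectin, was at 337 ± 123 CPM in pos against 1163 ± 183 CPM in neg (-1.79, SE 0.32, edgeR adjusted p = 0.0386). PLEC without the length trend was at -0.76 (edgeR adjusted p = 0.0389). FLNA (-0.83, SE 0.25) and KRT20 (-3.05, SE 0.94) were not past the threshold. KRT20 passed with the length trend removed (-3.52, edgeR adjusted p = 0.0454), at means of 0.211 CPM in pos and 1.64 CPM in neg. Of 7 tested genes of intestinal adhesion PCDH1, a protocadherin, fell (-1.37, SE 0.24, edgeR adjusted p = 0.0381; -0.92, edgeR adjusted p = 0.0786 after length removal), and USH1C (0.50, SE 0.24) and MYO7B (-0.60, SE 0.32) were not past the threshold.

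**Figure D5:**
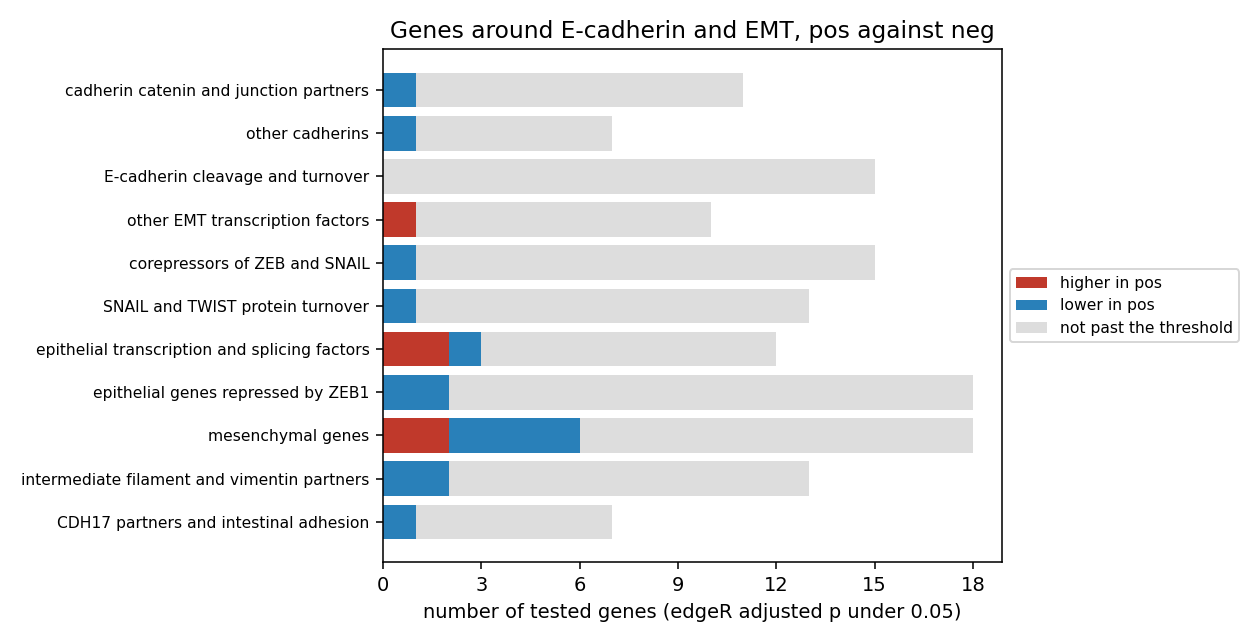
Number of tested genes in each of the 11 lists that were higher in pos, lower in pos or not past an edgeR adjusted p of 0.05. Most genes of every list are not past the threshold, and the mesenchymal list has the most calls, 2 higher and 4 lower.

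The genes whose pattern was most like CDH1 were DNAJB9, PDE4DIP and ATP8B2, by the root mean square difference of log2 CPM centred on the neg mean over the 5 libraries (0.03, 0.06 and 0.06, among 10771 genes). DNAJB9 was at -1.21 and -2.22 in pos replicates 1 and 3. The genes most like VIM were APOL2, C3orf18 and LARGE (0.04, 0.06 and 0.06). Of these 6 genes 0 remained among the nearest 3 with the length trend removed.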

How the data were processed

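Raw read counts per gene symbol were deposited by the authors for 5 libraries made with the TruSeq Stranded mRNA kit and aligned with STAR, per the labels' protocols. CASAVA 1.8.2, STAR 2.5.2b, DESeq2 1.24.0 and hg19 are listed in the submitters' processing notes, while the labels' protocols name GRCh38. Coordinates here come from GENCODE 44 or RefSeq (GRCh38). How reads were counted, and whether by strand, is not given in the sources used here. Of 25435 rows 92 spike-in rows were left out.

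Tests were run with edgeR 4.0.16 in R 4.3.3: filterByExpr (minimum count 10, total 15; 13604 genes), TMM, glmQLFit and glmQLFTest, two-sided, Benjamini-Hochberg at 0.05. SE is the log2 fold change over the square root of F. CPM values are TMM-normalised, and log2 CPM had a prior count of 2. The length trend is a lowess (span 0.3), fitted in each library, on GENCODE 44 canonical transcript length. It was fitted to each gene's log2 CPM minus that gene's mean over the libraries and removed as offsets. Of tested genes 97.5% had a length. A fit with a single pos library assumes that it varies like neg. Alternatives were DESeq2 1.42.0, DESeq2 size factors, library size only, no filter, a replicate block and each library left out. At these totals 3 counts equal 0.189 to 0.316 CPM, and intervals and floors cover counting error only, since molecular identifiers are not mentioned. Libraries of each group differed by more than sampling noise (chi-square per degree of freedom 6.35 to 23.8 in neg, 162 in pos). Recovery of set fold changes by edgeR was tried on simulated counts without a length trend. That trial therefore does not cover a trend shared across genes, such as the one between these pos libraries.

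The 10 genes and the lists were chosen with earlier results of these data known. Genes named were the 10, MUC1, the 4 tested genes of each list with the smallest p, and the 3 genes most like CDH1 and VIM with a mean of at least 5 CPM. A few of the genes so picked are not reported here. CDH2, GRHL1, the other catenins, LOX, the antisense rows and the read ratios between genes were chosen after values were seen.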

Additional observations from a re-analysis of the deposited data

How the results depend on the processing

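Of the 7 tested genes CDH1, CDH3, ZEB1, SNAI2 and VIM stayed below 0 in every alternative run. The number of the 10 genes past the threshold was 2, and it was 1 with library size only, 4 with the length trend removed, 4 and 6 when that was combined with leaving out pos replicate 1 or 3, 0 with the replicate block (edgeR, with 3 at an unadjusted p under 0.05) and 0 to 6 with each library left out. All-gene calls were 1251, and 3161 with DESeq2, 606 with library size only, 87 with the replicate block, 405 with the block and the length trend removed, 7027 and 4833 when length removal was combined with leaving out pos replicate 1 or 3, and 0 to 8819 with each library left out. Fits with 1 pos library measure that library, not the group. The 11 lists had 19 calls, and 8 with library size only. With library size only the median over all genes was -0.41 on the log2 scale, against -0.05, and the calls were 148 higher and 458 lower, against 689 and 562.

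CDH1 lost its call with library size only (-1.97) and the replicate block (-1.78, edgeR adjusted p = 0.233), and SNAI2 with the block (-2.15, edgeR adjusted p = 0.20). With the block and the length trend removed both were called, as were 405 of 13258 genes. CDH1 was then at -1.36 (edgeR adjusted p = 0.0288) and SNAI2 at -2.43 (edgeR adjusted p = 0.0114). Replicate numbers are shared by name, and whether they pair the libraries is not stated. Deviations of same-numbered libraries correlated at -0.44 and -0.45. With 2 pos libraries the pos deviations mirror each other, so these values are not independent and cannot decide whether the numbers pair the libraries. Leaving out each library in turn gave -2.23 to -1.28 for CDH1, -2.44 to -1.64 for SNAI2, -1.10 to -0.54 for CDH3, -2.22 to -0.95 for ZEB1, -0.70 to -0.05 for VIM, -0.66 to 0.67 for SNAI1 and -6.70 to 0.06 for CDH17, whose lower end rests on 0 reads and is no bound, and which could not be fitted without neg replicate 2. ZEB1 passed with DESeq2 (-1.43), with the length trend removed (-0.96), and with that and without pos replicate 1 (-1.29) or 3 (-0.73). VIM passed with the length trend removed (-0.67), and with that and without pos replicate 1 (-0.52) or 3 (-0.80). SNAI1 turned negative with library size only (-0.36), the block (-0.01), the length trend removed (-0.43), and with that and the block (-0.49) or without pos replicate 1 (-0.10) or 3 (-0.84). CDH17 was at 0.13 with pos replicate 3 left out and length removed.

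Of 616 values of other named genes 18 changed sign. With the length trend removed TCF3 was at 0.12, CTBP2 at 0.04, USP3 at 0.00 and MYO7B at 0.06, and with the block added at 0.14, 0.06, 0.01 and 0.09. Leaving out pos replicate 1 as well as the trend, they were at 0.43, 0.28, 0.19 and 0.34, and CSNK2A1 was at 0.22, GSK3B at 0.01, FLNA at 0.15 and EPCAM at -0.20. PSENEN was at -0.12 with pos replicate 3 left out and length removed, and HDAC1 at -0.03 with library size only. The cause of these shifts was not tested. Depth limits CDH17, ZEB2, TWIST1 and GRHL2, at 0 to 31 reads per library.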
